A study of Mus musculus with 9 samples.

Results

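The cytosolic ribosomal proteins were taken as the 83 protein-coding rows of the gene count table, of 54532 rows in all, whose symbol is Rpl or Rps with a number and its usual suffix, or is Rplp0, Rplp1, Rplp2 or Rpsa. They comprised 51 proteins of the large (60S) subunit and 32 of the small (40S) subunit, and they were chosen by name and not by any measured value. Poly A RNA was sequenced from 9 libraries of 3T3-L1, a mouse fibroblast line that turns into adipocytes on hormonal stimulation. The Undifferentiated group (n = 3) had stood at confluence for 3 days in a medium with bovine calf serum. The Differentiated group (n = 3) had been moved from confluence to differentiation medium. This held insulin (10 μg/mL), the PPARγ ligand rosiglitazone (1 μM), the glucocorticoid dexamethasone (1 μM) and the phosphodiesterase inhibitor 3-isobutyl-1-methylxanthine (0.5 mM), and was made with fetal bovine serum and with lysine added. The Lysfree group (n = 3) received the same medium with no lysine added, so that by design it differed from Differentiated in lysine alone, while both differed from Undifferentiated in medium, serum and agents together. All groups were 1 cell line. The labels do not give the time of harvest after the change of medium, and they do not say whether replicates were separate cultures, so p-values here measure only the spread between these libraries.

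Ribosomal proteins and ribosomal RNA together form the machine that translates every mRNA, and a growing cell devotes a large part of its mRNA to them. Most of their mRNAs begin with a C followed by a run of pyrimidines, the 5′ terminal oligopyrimidine (TOP) motif, through which the kinase mTOR controls their translation when amino acids are scarce. Lysine is itself abundant in these basic proteins. The comparisons ask whether the mRNAs of the family move with the differentiation medium and with the absence of lysine.

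The sequence around the gene start is shown for 6 members described below in which a run of pyrimidines, the letters of the TOP motif, was found. Each line runs 5′ to 3′ from 10 bases before the RefSeq gene start through the first 20 bases of the gene (GRCm38.p6), and capitals mark a C followed by at least 5 pyrimidines.
Rps6: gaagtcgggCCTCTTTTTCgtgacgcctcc
Rps12: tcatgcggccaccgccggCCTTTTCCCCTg
Rps23: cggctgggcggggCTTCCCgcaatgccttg
Rps27: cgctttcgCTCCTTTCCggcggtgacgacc
Rplp2: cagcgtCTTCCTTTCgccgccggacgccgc
Rpl12: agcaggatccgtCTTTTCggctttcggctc
These windows lie at chr4:86857348-86857377 and chr10:23787190-23787219 (both minus strand), chr13:90923112-90923141 (plus strand), chr3:90213629-90213658 (minus strand), chr7:141447641-141447670 and chr2:32961702-32961731 (both plus strand). The promoter table matched 63 of the 83 members. A run of this kind (a C followed by at least 5 letters that are each C or T, read on the gene's strand from 20 bases before to 30 bases after the start) was present at any listed start of 46 of them (73.0%), against 37.8% of the 27025 genes in the table. In the whole window from 250 bases before to 50 after the start, searched on both strands, CCGGAAG stood in 26 members (41.3%), against 9.93% of all genes. The letters ATGGCG stood in 21 members (33.3%), against 10.2%. In Rps12, Rps23 and Rpl12 the run begins inside the listed gene, and in the other windows shown before its start, so a run need not be the first bases of the mRNA. No run was found for Rplp0, Rpl9, Rps28, Rps4x and Rpl36a, which says only that these letters are not in that window. These are matches of letters and were not tested as sites.

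The amino acid that was withheld makes up a large share of these proteins. Over the 83 members the median share of lysine codons (AAA or AAG) was 12.1%, against 5.38% over 21469 protein-coding genes and 6.86% over the 77 mitochondrial ribosomal proteins. In 55 members the share was above the 95th percentile of all protein-coding genes (10.6%). Rpsa had the lowest share at 3.73% and Rpl41 the highest at 28.0%. The coding sequences of Rpl41 and Rpl39, the shortest proteins of the family, show how dense these codons are. Lysine codons are in capitals, and the sequences are those of the principal GENCODE vM21 transcripts.
Rpl41: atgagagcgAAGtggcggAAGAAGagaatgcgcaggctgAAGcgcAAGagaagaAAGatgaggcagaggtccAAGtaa
Rpl39: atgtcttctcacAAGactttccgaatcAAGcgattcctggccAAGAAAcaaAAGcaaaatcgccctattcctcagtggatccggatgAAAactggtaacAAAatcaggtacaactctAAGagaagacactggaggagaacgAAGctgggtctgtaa
Rpl41 (chr10:128548114-128549305, minus strand) has 7 lysine codons among 25, and Rpl39 (chrX:37082520-37085402, minus strand) has 9 among 51. The mRNA of Rpl41 stood at 352, 568 and 488 FPKM in Undifferentiated, 479, 432 and 511 in Differentiated and 301, 498 and 483 in Lysfree, and was called in no comparison. The log2 fold change of Rpl41 from Differentiated to Lysfree was -0.08 ± 0.13 (SE, edgeR adjusted p = 0.65).

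Total counts ranged from 15880144 to 21806693 per library. The 8 adipocyte markers summed to 6890 to 7245 FPKM in Differentiated, against 314 to 395 in Undifferentiated and 292 to 408 in Lysfree, with none of them at 0. The 7 fibroblast markers summed to 4044 to 4386, 1021 to 1026 and 1528 to 1584 FPKM in Undifferentiated, Differentiated and Lysfree. Single markers did not all follow these sums. Lpl and Cd36 had higher means in Lysfree (188 and 72.7 FPKM) than in Undifferentiated (146 and 16.6). The other adipocyte markers had lower means, such as Adipoq (4.18 against 57.8 FPKM). Among the fibroblast markers, Vim (607 against 602 FPKM) and Thy1 (89.1 against 70.4) were not lower in Lysfree than in Undifferentiated, and the others were. Markers of macrophages summed to at most 5.01 FPKM in any library, with Adgre1 at 0 throughout, and those of endothelial, epithelial and muscle cells to at most 3.98 FPKM. The part of the change in cell state in the results below was not tested, and in bulk RNA fewer cells of a type and less RNA per cell cannot be told apart. Lysfree 1 stood apart from Lysfree 2 and Lysfree 3. Against the mean of the other libraries of its group, the members with a transcript under 600 bases were lower in Lysfree 1 by a median of -0.58 on the log2 scale and the longer members by -0.16, and 247 other protein-coding genes under 1000 bases were lower there as well, by a median of -0.46. In Undifferentiated 2 the members were higher by a median of 0.29, as were the other short genes (0.29). What set these libraries apart was not tested, and results are given with and without Lysfree 1.

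The family held a smaller share of the counts in both groups given differentiation medium. Member rows took 4.78%, 5.97% and 5.29% of all counts in the Undifferentiated libraries, 4.17%, 3.95% and 4.28% in Differentiated, and 3.90%, 4.50% and 4.47% in Lysfree. The lowest Undifferentiated library was above every library of the other groups, while Differentiated and Lysfree overlapped. The group means were 5.35% ± 0.60, 4.13% ± 0.17 and 4.29% ± 0.34 (SD, n = 3). Summed per gene length, the level was 33379 ± 4288 FPKM in Undifferentiated, 27013 ± 1141 in Differentiated and 24895 ± 2909 in Lysfree (SD, n = 3), again with every Undifferentiated library above all others. No test was run on these sums.

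**Figure D1:**
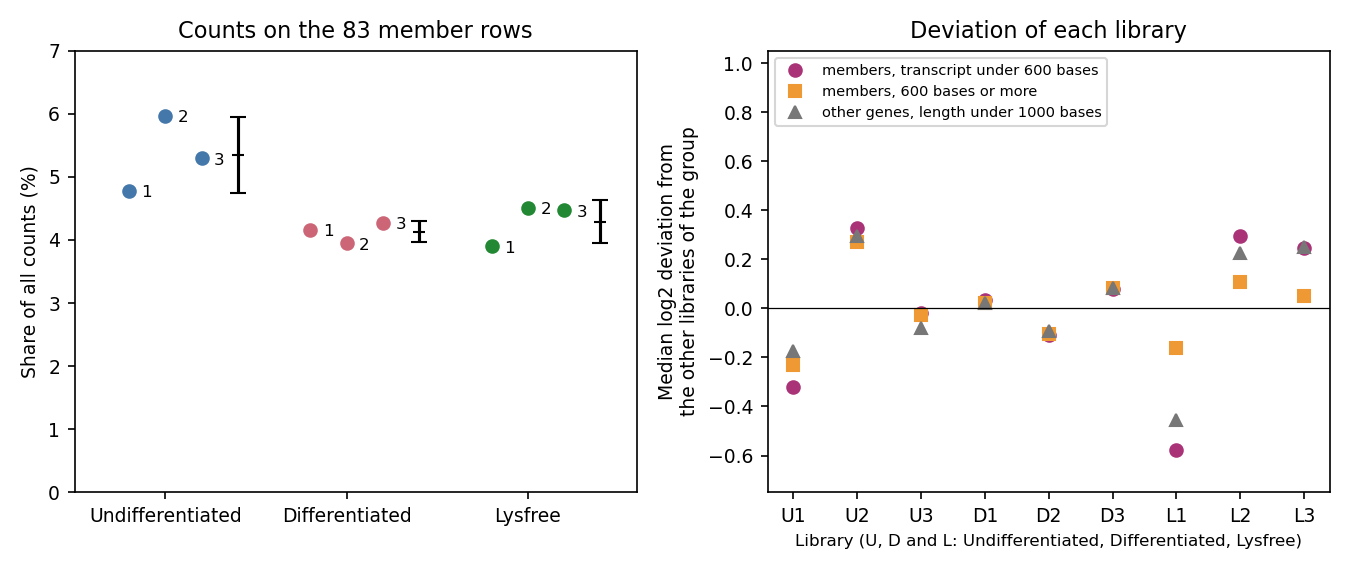
Left, the share of all counts on the 83 member rows in each library (points, numbered by replicate) with the mean and SD of each group (n = 3), where the Undifferentiated libraries (4.78% to 5.97%) lie above all others. Right, the median log2 deviation of each library from the mean of the other libraries of its group, for short members, longer members and other short protein-coding genes, where Lysfree 1 is low for short members (-0.58) and other short genes (-0.46).

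Levels within the family spanned a wide range, and most of the low rows were genes with near-identical copies elsewhere in the genome. In Differentiated, 68 of the 83 members were at 100 FPKM or more and 11 were under 20 FPKM. Those 11 were 3 paralogues with no counts in that group and 8 of the 9 members, named below, whose copies hold more counts than they do. The 5 highest by mean FPKM over all libraries were Rplp1 and Rplp0 of the P stalk (the arm of the large subunit that recruits translation factors), Rps3a1, Rpl8 and Rpl36. Rps3a1, a small subunit protein, stood at 1321, 1631 and 1427 FPKM in Undifferentiated, 963, 932 and 1014 in Differentiated and 749.8, 852 and 830.5 in Lysfree. Rpl8, which lies close to the peptidyl transferase centre, stood at 925, 1094 and 1010.1 FPKM, 1070.2, 1034 and 1106 and 644, 829 and 839.8 in the same order of groups. Rpl10l and Rpl39l, paralogues known from testis, had no counts in any library, and Rpl3l, a paralogue of striated muscle, was listed at 0 in every library but Lysfree 2, where it stood at 0.0638 FPKM, so no fold change is given for it. Rps4l is listed as a pseudogene and was no member. These 3 paralogues account for the members that could not be tested: 80 members were tested between Differentiated and Undifferentiated and 81 in each comparison with Lysfree.

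Of the 83 members, 68 had rows elsewhere in the genome with which they shared a stretch of 150 bases, and these 261 copies, of which 244 were pseudogenes, held 1096573 counts against 7553703 on the members. In 9 members the copies held more counts than the member itself: Rps2, Rpl29, Rpl34, Rps10, Rpl21, Rpl24, Rps18, Rpl17 and Rpl35a. The extreme was Rps2, a protein of the mRNA entry channel. Its own row held 865 counts over all libraries and its 21 copies 206511, of which 204191 were on Rps2-ps13 (chrX:52898588-52899469 in the deposited table). Rpl34 held 1662 counts and its single copy Rpl34-ps1 (chr6:71124610-71124963) held 60151. A level or fold change of such a row describes the reads that the authors' counting left on it. Where such a member is named for its fold change below, the value with the counts of its copies added is given too, a choice made after the data were seen. Among all members, 17 overlapped another protein-coding row. Among them, Rpl13a shared its locus with Gm45713, and the setting for reads in overlaps is not given in the sources used here.

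**Figure D2:**
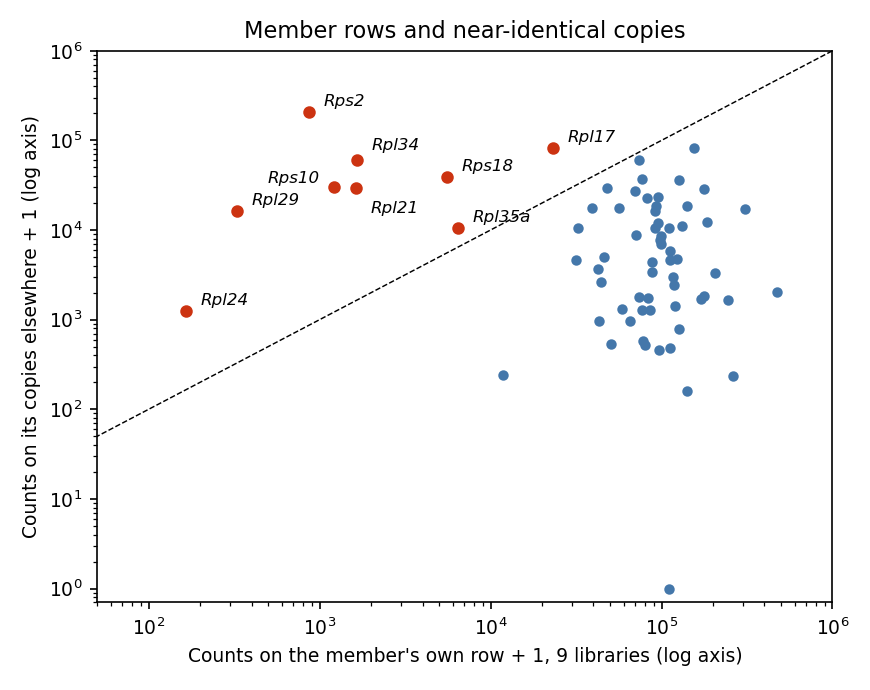
Counts summed over the 9 libraries on each member's own row (x) and on its copies elsewhere (y), both plus 1 on log axes, for members with at least one copy and at least one count. The 9 labelled members lie above the dashed line of equality, with Rps2 at 865 counts on its row against 206511 on copies.

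Differentiated was compared with Undifferentiated for the response to differentiation medium with lysine. Most of the family fell by a small amount: 59 of the 80 members tested were lower, 9 were higher and 12 were not called at an adjusted p under 0.05 (edgeR), against 23.2% of all genes tested called lower and 23% called higher. Among the 2267 genes at a mean of at least 100 CPM, where most members lie, 40.7% were called lower and 47.2% higher. The median log2 fold change of the members was -0.33, against 0.02 over all genes tested. No member was called with a change of 2-fold or more, against 11.4% of all genes lower and 10.4% higher. The fall was seen in both subunits, with the mRNAs of 28 of 32 proteins of the small subunit and 31 of 48 tested of the large subunit lower. The FPKM ranges of both groups did not overlap for 45 members that were lower and 6 that were higher, against 24.7% and 26.2% of all genes tested.

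In this comparison, with every expressed gene kept, edgeR found no variation between genes in their spread beyond the trend with level, and every gene was given the spread of that trend. For Rpl17 the adjusted p was then 6.1e-60, against 0.0036 with the expression filter of edgeR. With its expression filter the counts were 53 lower and 8 higher (38% and 37.4% of genes), with DESeq2 48 lower and 8 higher (26.3% and 26.6%), and the SE and adjusted p of single genes in this comparison are quoted from the filtered fit. Without Undifferentiated 2 the counts were 54 lower and 15 higher (23.2% and 23.1% of genes) and the median was -0.22. The 750 other protein-coding genes with transcripts under 1000 bases had a median of 0.23 with all libraries.

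The largest falls were in mRNAs for proteins of the small subunit and in Rpl17, whose protein lies at the rim of the peptide exit tunnel. Rps20, a protein of the head of the small subunit, stood at 185, 239.9 and 203 FPKM in Undifferentiated and 115, 109 and 120.1 in Differentiated, with no overlap. This was a log2 fold change of -0.89 (SE 0.08 and edgeR adjusted p = 4.6e-07 with the filter). Rps27, a zinc finger protein of the small subunit, went from 257, 405 and 310.0 to 232, 140.3 and 209 FPKM with a log2 fold change of -0.77 (SE 0.17 and edgeR adjusted p = 0.0014 with the filter). The groups did not overlap, though the lowest Undifferentiated and the highest Differentiated library of Rps27 were close.

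Rps4x, the X-linked member of the Rps4 family, fell from 773, 917 and 835 to 525, 515 and 555 FPKM, with a log2 fold change of -0.69 (SE 0.06 and edgeR adjusted p = 3.9e-07 with the filter). Rps12 fell from 199, 231 and 203 to 120.0, 152 and 129 FPKM, with a log2 fold change of -0.68 (SE 0.08 and edgeR adjusted p = 6.6e-06 with the filter). In both members every Differentiated library was below every Undifferentiated one. Rpl17 read 135, 182 and 342 in Undifferentiated, where the third library was far above the others, and 115, 102 and 125 FPKM in Differentiated, without overlap. The log2 fold change of Rpl17 was -0.96 (SE 0.25 and edgeR adjusted p = 0.0036 with the filter), and DESeq2 gave an adjusted p of 0.041. Rpl17 holds 23118 counts against 81658 on its copies, and with these added the fold change was -0.56.

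Among the members that rose, the largest change was in Rpl7l1, a paralogue of Rpl7 that takes part in assembly of the large subunit. It rose from 27.5, 32.0 and 29.1 to 53.5, 50.4 and 53.0 FPKM, a log2 fold change of 0.80 (SE 0.06 and edgeR adjusted p = 7.8e-08 with the filter). Rpl7 itself fell from 492, 560.2 and 532 to 415, 408 and 433 FPKM, with a log2 fold change of -0.36 (SE 0.05 and edgeR adjusted p = 4.3e-05 with the filter). Rpl9, a protein near the base of the stalk, rose from 173, 221 and 186 to 258, 236 and 263 FPKM, with a log2 fold change of 0.36 (SE 0.08 and edgeR adjusted p = 0.0015 with the filter). Rplp2 of the P stalk rose from 253, 308 and 263 to 355, 336 and 345 FPKM, a log2 fold change of 0.30 (SE 0.07 and edgeR adjusted p = 0.0013 with the filter). Neither Rpl9 nor Rplp2 overlapped between the groups. Rpl34 and Rpl21 were also called higher, with log2 fold changes of 0.76 and 0.35, but with their copies added these became -0.01 and -0.44, and for Rpl21 the adjusted p with the filter was 0.072 (edgeR).

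**Figure D3:**
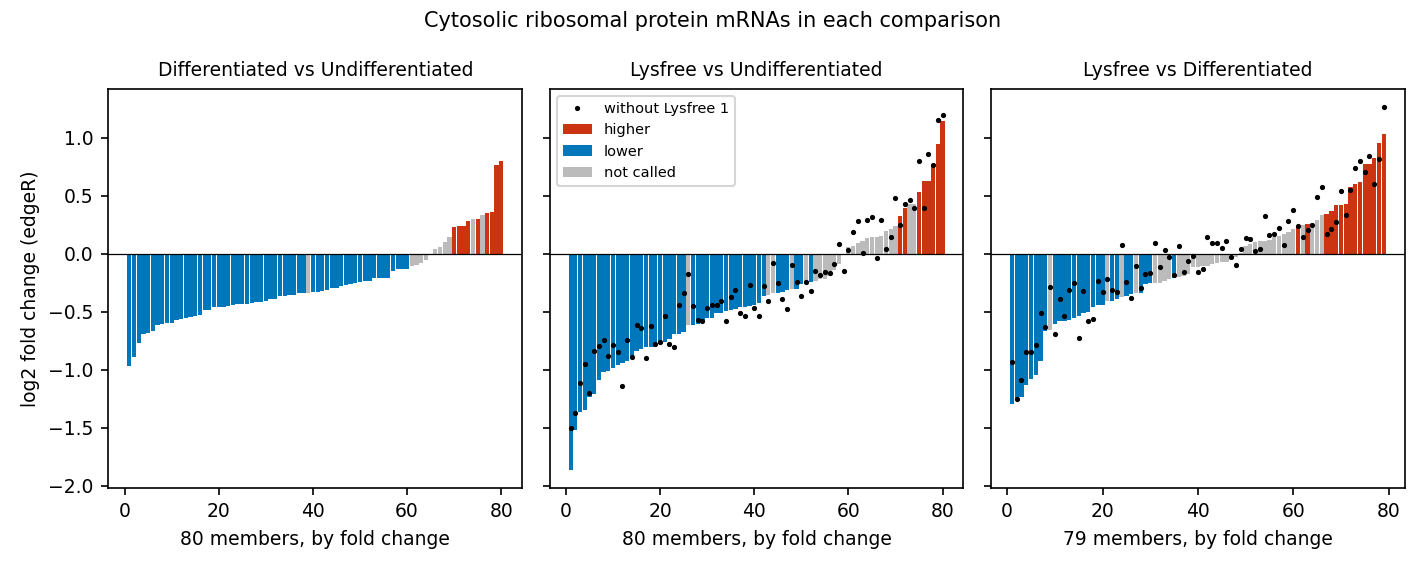
The log2 fold change (edgeR) of each member with a mean of at least 1 CPM in the 3 comparisons, sorted from lowest to highest, with members called higher in red, lower in blue and not called in grey. Dots give the value without Lysfree 1. In Differentiated against Undifferentiated all bars lie between -1 and 1 and 59 are blue, and in Lysfree against Differentiated 27 are blue and 15 red.

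Lysfree was compared with Differentiated for the effect of lysine in the same medium. The family split: 27 of the 81 members tested were lower, 15 were higher and 39 were not called (edgeR), against 18.8% of all genes tested called lower and 19.7% called higher. The share of members called higher was near that background. The excess of lower over higher calls depended on the scaling. With library totals alone 22 were lower and 21 higher (median log2 fold change -0.03), and with an offset for gene length 26 and 21 (median -0.01). The shares of all genes called under these scalings are not given here. Among the 2429 genes at a mean of at least 100 CPM, however, 34% were called lower and 39.3% higher, and neither share of the members exceeded these. The median log2 fold change of the members was -0.11, against -0.06 over all genes. The 748 other protein-coding genes with transcripts under 1000 bases had a lower median of -0.23, with 320 lower and 173 higher. Without Lysfree 1 the median of these short genes was -0.16, with 353 lower and 240 higher. One member, Rps2, was higher by at least 2-fold and 6 were lower by at least 2-fold, against 8.14% of all genes higher and 10.5% lower by that much. Without Lysfree 1, 1 was higher and 2 were lower by 2-fold, against 1903 higher and 2582 lower of the 23678 genes tested. The FPKM ranges did not overlap for 36 members that were lower and 12 that were higher, against 25.3% and 21.3% of all genes tested.

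Lysfree 1 lowered the middle of this distribution. Without it the median was 0.02 and 35 members were lower and 29 higher, against 22.6% and 22.6% of all genes. In that fit edgeR again gave every gene the spread of the trend with level. With the expression filter as well, a setting added after the data were seen, 33 were lower and 24 higher (36.9% and 36.7% of genes), with a median of -0.01. All 42 members called with every library kept their direction and their call in both of these fits without Lysfree 1. With all libraries and the filter, 24 were lower and 15 higher (31.6% and 32% of genes), and Rps29, Rpl11, Rps15 and Rpl23 lost their calls. In both comparisons with Lysfree, the SE and adjusted p of single genes are from the fit without the filter, unless another fit is named. On simulated data that fit made more false calls than the adjusted p allows for. These values are thus not comparable with the filtered ones of the first comparison.

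Large falls were seen in Rps28, Rpl9, Rpl36, Rpl13a and Rpl36a. Rpl9 was low in every Lysfree library alike. It stood at 258, 236 and 263 FPKM in Differentiated and 97.9, 102 and 103 in Lysfree, with a log2 fold change of -1.26 ± 0.08 (SE, edgeR adjusted p = 5.1e-11) that was -1.25 without Lysfree 1. Each Lysfree library of Rpl9 was below every library of both other groups.

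Rps28, one of the shortest members, stood at 196, 192 and 207 in Differentiated and 29.0, 99.5 and 102 FPKM in Lysfree, with the first Lysfree library far below the others. The log2 fold change of Rps28 was -1.30 ± 0.26 (SE, edgeR adjusted p = 0.00036) and -0.93 without Lysfree 1. Rpl36 stood at 1054, 965 and 1053 against 229, 559 and 546 FPKM, with a log2 fold change of -1.14 ± 0.20 (SE, edgeR adjusted p = 8.2e-05) that was -0.84 without Lysfree 1. Rpl36a stood at 181, 160.1 and 172 against 46.0, 97.8 and 93.8 FPKM. Its log2 fold change was -1.04 ± 0.18 (SE, edgeR adjusted p = 5.1e-05) and -0.79 without Lysfree 1. For these short members Lysfree 1 thus carried part of the size, and the groups did not overlap with or without it. Rpl13a, which shares its locus with Gm45713, stood at 31.4, 27.3 and 32.0 against 8.43, 15.7 and 16.8 FPKM, a log2 fold change of -1.08 ± 0.17 (SE, edgeR adjusted p = 2.6e-05). Lysfree 1 was the lowest library for Rpl13a too, and without it the fall was under 2-fold.

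Rplp0 and Rpl12 were among the rises. Rplp0, which anchors the P stalk, stood at 1650.2, 1835 and 1742 FPKM in Undifferentiated, 1297, 1262 and 1316 in Differentiated and 2265, 2041 and 2027 in Lysfree. Each Lysfree library was above every library of both other groups. The log2 fold change of Rplp0 from Differentiated was 0.77 ± 0.07 (SE, edgeR adjusted p = 7.7e-09), and 0.70 without Lysfree 1. Rpl12, which forms the base of the stalk with Rplp0, stood at 297, 357 and 326 FPKM in Undifferentiated, 243, 215 and 234 in Differentiated and 331, 332 and 324 in Lysfree. Its log2 fold change from Differentiated was 0.58 ± 0.08 (SE, edgeR adjusted p = 2.1e-06), and its Lysfree level lay within the Undifferentiated range. Rpl12 was singled out after its values were seen, as was Rpl30 below.

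The mRNAs of the other stalk proteins were not called with all libraries. Rplp1 stood at 2747, 2484 and 2718 FPKM in Differentiated and 2106, 3587 and 3612 in Lysfree, where the first library was below all the Differentiated ones and the others above. For Rplp1 the log2 fold change was 0.29 ± 0.14 (SE, edgeR adjusted p = 0.1) with all libraries and 0.49 without Lysfree 1 (edgeR adjusted p = 6e-09 with the filter). Rplp2 had a log2 fold change of 0.08 ± 0.08 (SE, edgeR adjusted p = 0.47). The difference in fold change between stalk proteins was not tested.

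Rpl30 stood at 140.5, 143 and 145 FPKM in Differentiated and 146, 242 and 239 in Lysfree, a log2 fold change of 0.62 ± 0.13 (SE, edgeR adjusted p = 0.00064) that was 0.43 with its copies added. The Lysfree libraries of Rpl30 were all higher, with Lysfree 1 closest to Differentiated. Rps15a stood at 58.2, 54.1 and 62.9 FPKM in Differentiated and 126, 85.7 and 85.7 in Lysfree, where Lysfree 1 was the highest. Its log2 fold change was 0.83 ± 0.12 (SE, edgeR adjusted p = 5.3e-06) and 0.60 without Lysfree 1. Rpsa, the laminin receptor protein of the small subunit, stood at 519, 485 and 523 FPKM against 761, 602 and 592, with a log2 fold change of 0.42 ± 0.09 (SE, edgeR adjusted p = 0.0004) that was 0.28 without Lysfree 1.

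The remaining large rises were in rows that hold a minor part of their reads. Rps2 alone read 4.80, 2.76 and 3.72 CPM in Differentiated and 4.89, 12.4 and 6.80 in Lysfree, which overlap, with a log2 fold change of 1.03 ± 0.28 (SE, edgeR adjusted p = 0.0045). With its copies it read 833, 1045 and 946 CPM in Undifferentiated, 1047, 986 and 1091 in Differentiated and 1834, 1875 and 1879 in Lysfree. Counted this way the Lysfree libraries were close to each other and above all the others, and the log2 fold change from Differentiated was 0.76 (edgeR adjusted p = 1.2e-08). For Rpl17 the opposite held. Its own row gave a log2 fold change of 0.96 ± 0.22 (SE, edgeR adjusted p = 0.0011) with overlapping groups, and with copies it read 558, 485 and 560.2 CPM in Differentiated and 628, 541 and 520.1 in Lysfree, a log2 fold change of -0.00 (edgeR adjusted p = 0.99). Rpl21 went from 0.78 on its own row to 0.14 with its copies (edgeR adjusted p = 0.48).

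**Figure D4:**
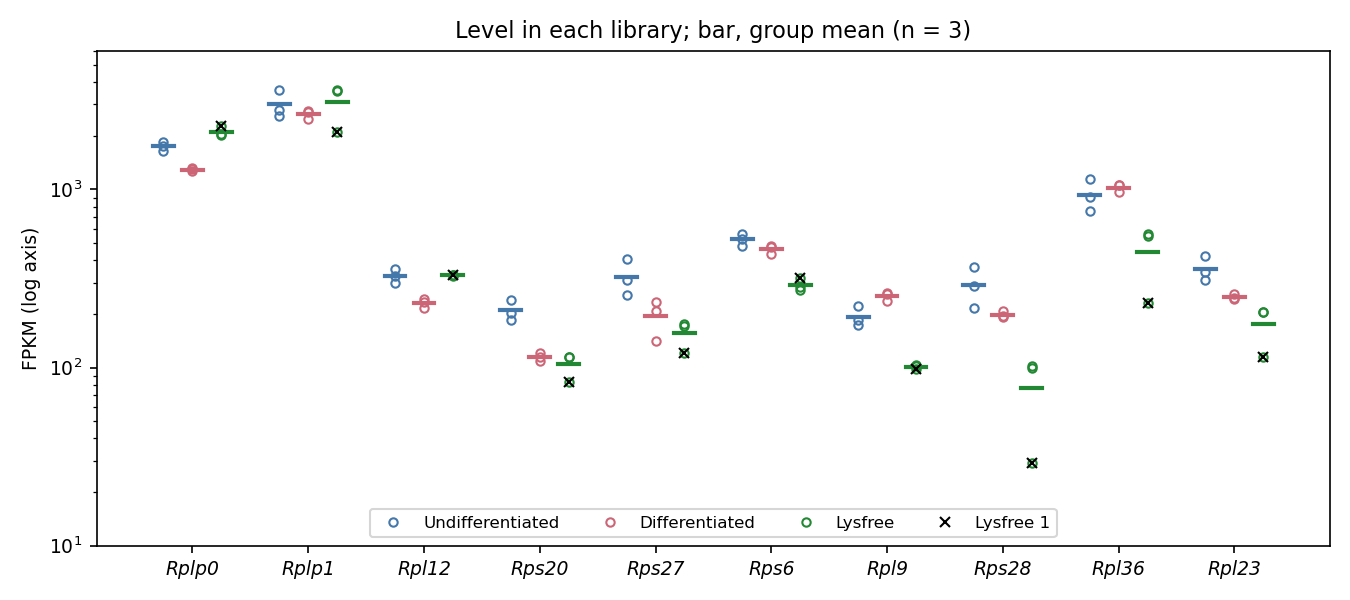
FPKM on a log axis of 10 members in each library, with open circles for libraries, bars for group means (n = 3) and a cross on Lysfree 1. Rplp0 and Rpl12 are lowest in Differentiated, Rps20 is low in both groups given differentiation medium, and Rpl9 and Rps28 are lowest in Lysfree, with Lysfree 1 at 29.0 FPKM for Rps28.

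Members with functions outside translation were followed by name. Rps6, the substrate of the S6 kinases that act below mTOR, stood at 483, 564 and 527 FPKM in Undifferentiated, 474, 433 and 478 in Differentiated and 318, 273 and 282 in Lysfree. No Lysfree library of Rps6 reached any library of the other groups. Its log2 fold change from Differentiated to Lysfree was -0.60 ± 0.08 (SE, edgeR adjusted p = 4e-06) and -0.69 without Lysfree 1.

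Rpl5, Rpl11 and Rpl23 bind Mdm2, the ubiquitin ligase of p53, when ribosome assembly is disturbed. Rpl5 was lower in Differentiated than in Undifferentiated, by a log2 fold change of -0.36 (SE 0.07 and edgeR adjusted p = 0.00039 with the filter), and its change from Differentiated to Lysfree was -0.11 ± 0.08 (SE, edgeR adjusted p = 0.3). Rpl11 stood at 209, 197 and 209 FPKM in Differentiated and 75.9, 164 and 156 in Lysfree, with a log2 fold change of -0.57 ± 0.17 (SE, edgeR adjusted p = 0.012) that was -0.31 without Lysfree 1. The expression filter raised the adjusted p of Rpl11 to 0.061 (edgeR). Rpl23 stood at 258, 243 and 246 FPKM against 114, 206 and 204, with a log2 fold change of -0.44 ± 0.15 (SE, edgeR adjusted p = 0.021), -0.23 without Lysfree 1, and an adjusted p of 0.065 with the filter (edgeR). In Rpl11 and Rpl23 every Lysfree library was below every Differentiated one. Rps27a, which encodes ubiquitin fused to a ribosomal protein, ranged from 105 to 199 FPKM in Undifferentiated and from 108 to 199 in Differentiated, and its call as lower between these groups did not hold with the filter (edgeR adjusted p = 0.57).

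Paralogues are given beside their counterparts, and the differences between them were not tested. Rpl22l1 stood at 23.9, 32.9 and 29.4 FPKM in Undifferentiated, 38.1, 32.8 and 36.2 in Differentiated and 26.2, 51.8 and 51.2 in Lysfree, where Lysfree 1 was close to Undifferentiated. Its log2 fold change from Undifferentiated to Differentiated was 0.28 (SE 0.10 and edgeR adjusted p = 0.024 with the filter), whereas that of Rpl22 was -0.48 (SE 0.07 and edgeR adjusted p = 6.5e-05 with the filter). From Differentiated to Lysfree, Rpl22 had a log2 fold change of 0.23 ± 0.08 (SE, edgeR adjusted p = 0.033) and Rpl22l1 one of 0.34 ± 0.17 (SE, edgeR adjusted p = 0.14), which was 0.58 without Lysfree 1. Rps27l, a p53 target in other cells, had a log2 fold change of 0.24 (SE 0.10 and edgeR adjusted p = 0.04 with the filter) from Undifferentiated to Differentiated and of -0.39 ± 0.10 (SE, edgeR adjusted p = 0.0044) from there to Lysfree. For Rps27 the change to Lysfree was -0.25 ± 0.15 (SE, edgeR adjusted p = 0.23). Rpl3, Rpl10 and Rps4x, the expressed counterparts of silent or absent paralogues, were each called higher in Lysfree than in Differentiated. For Rpl3 the log2 fold change was 0.34 ± 0.10 (SE, edgeR adjusted p = 0.0061), and 0.17 without Lysfree 1, which stood at 386 FPKM against 288 and 287 in the other Lysfree libraries. For Rps4x it was 0.37 ± 0.09 (SE, edgeR adjusted p = 0.0027), and 0.21 without Lysfree 1, with 785, 599.8 and 591 FPKM in Lysfree. For Rpl10 it was 0.25 ± 0.07 (SE, edgeR adjusted p = 0.0093), and 0.20 without Lysfree 1. Rpl39 was lower at -0.51 ± 0.08 (SE, edgeR adjusted p = 3.9e-05). Rpl7l1, raised by the medium, stood at 47.7, 49.3 and 49.9 FPKM in Lysfree, a log2 fold change of -0.03 ± 0.08 (SE, edgeR adjusted p = 0.8) from Differentiated.

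Lysfree was also compared with Undifferentiated, in which medium, serum, agents and lysine all differ. Of 81 members tested, 47 were lower, 8 were higher and 26 were not called (edgeR), against 17.1% of all genes tested called lower and 18% called higher, and 27% and 43% among the 2312 genes at a mean of at least 100 CPM. The median log2 fold change was -0.42, against -0.02 over all genes. The 739 other protein-coding genes with transcripts under 1000 bases had a median of -0.01, with 205 lower and 216 higher. Without Lysfree 1 the counts were 54 lower and 16 higher (20.4% and 20.2% of genes), with a median of -0.37. In that fit edgeR again gave every gene the spread of the trend with level. With the filter as well, the setting added after the data were seen, 44 were lower and 11 higher (33.1% and 32.5% of genes). With the filter but all libraries, 43 were lower and 5 higher (29.5% and 28.8% of genes). The FPKM ranges did not overlap for 43 members that were lower and 5 that were higher, against 23.2% and 20.2% of all genes tested. This comparison shares the Undifferentiated libraries with the first and the Lysfree libraries with the second, so its values are not further evidence for either.

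By at least 2-fold, 9 members were lower and 1 was higher, against 8.76% and 5.52% of all genes. Without Lysfree 1 these counts were 5 and 2, against 2084 and 1197 of the 23556 genes tested. Without Undifferentiated 2 the counts of members were 7 and 3, and the share of all genes is not given here. Rps28 had the largest fall, with 216, 366 and 286 FPKM in Undifferentiated, a log2 fold change of -1.86 ± 0.24 (SE, edgeR adjusted p = 6.2e-08) and -1.50 without Lysfree 1. Rps23, a protein of the decoding centre, stood at 663, 867 and 748 FPKM in Undifferentiated, 489, 469 and 506 in Differentiated and 286, 323 and 328 in Lysfree. Each group of Rps23 lay wholly below the one before it, and the log2 fold change from Undifferentiated to Lysfree was -1.23 ± 0.10 (SE, edgeR adjusted p = 7.7e-12). Rps29 stood at 368, 722 and 476 FPKM in Undifferentiated and 60.1, 257 and 277 in Lysfree, with Lysfree 1 far below the others. The fall of Rps29 had a log2 fold change of -1.35 ± 0.27 (SE, edgeR adjusted p = 0.00011), -0.95 without Lysfree 1, and DESeq2 did not call it (adjusted p = 0.088). Rpl36a was also among the largest falls, with a log2 fold change of -1.36 ± 0.16 (SE, edgeR adjusted p = 1.6e-08), and -1.12 without Lysfree 1.

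The rises over Undifferentiated were led by Rpl21, Rps2, Rpl7l1, Rpl22l1 and Rps15a. On its own row Rps2 had a log2 fold change of 0.95 that did not pass with the filter (edgeR adjusted p = 0.083), and with copies added it was 0.95 (edgeR adjusted p = 8.9e-11), whereas Rpl21 went from 1.14 to -0.29. Rpl7l1 had a log2 fold change of 0.78 ± 0.10 (SE, edgeR adjusted p = 8.7e-08), with every Lysfree library above every Undifferentiated one. Rps15a had a log2 fold change of 0.63 ± 0.12 (SE, edgeR adjusted p = 3.7e-05) and 0.40 without Lysfree 1. For Rpl22l1 the log2 fold change was 0.63 ± 0.16 (SE, edgeR adjusted p = 0.0016) with overlapping groups, and with the filter it did not pass (edgeR adjusted p = 0.064).

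Ribosomal proteins outside the naming rule were read beside the members. Fau, a fusion of a ubiquitin-like protein to Rps30, had a log2 fold change of -0.33 from Undifferentiated to Differentiated and of -0.33 ± 0.08 (SE, edgeR adjusted p = 0.0016) from Differentiated to Lysfree. Rack1, a scaffold on the small subunit, had log2 fold changes of -0.41 and 0.23. Rpl36al was at a mean of 0.824 CPM, too low to follow.

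The mRNAs of most factors that build ribosomes rose with differentiation medium. Of 99 ribosome biogenesis factors, 85 rose and 4 fell from Undifferentiated to Differentiated (median log2 fold change 0.69), against 23% and 23.2% of all genes. From Differentiated to Lysfree, 41 were higher and 17 lower, with a median of 0.18, against 19.7% and 18.8% of all genes. Without Lysfree 1, 53 were higher and 25 lower, with a median of 0.19, against 22.6% and 22.6% of all genes. These shares, with all libraries and without Lysfree 1, are also the ones to set beside the lists below. With all libraries, the largest rises from Differentiated to Lysfree were Utp15 at 1.18 and Pwp2 at 1.14, both components of the small subunit processome. The largest falls were Ddx49 at -0.96 and Ddx56 at -0.88, RNA helicases.

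The mRNAs for proteins of the mitochondrial ribosome, which translates the mitochondrial genome, mostly rose with differentiation medium and fell without lysine. Of 76 tested, 69 were higher and 1 lower in Differentiated than in Undifferentiated (23% and 23.2% of all genes, median log2 fold change 0.90), and 3 were higher and 55 lower in Lysfree than in Differentiated (median -0.66, and -0.64 without Lysfree 1). Mrpl12 at -1.98 and Mrpl41 at -1.83 had the lowest values, and Mrpl23 at 0.84 and Mrpl13 at 0.48 the highest among those called.

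Of 28 translation factors and other mRNAs of the TOP class, 11 were higher and 8 lower in Lysfree than in Differentiated, with a median of 0.13. Without Lysfree 1, 13 were higher and 13 lower, with a median of 0.03. Eif3a at 0.88 and the cytoskeletal gene Vim at 0.73 led the rises, and the elongation factors Eef1g at -0.83 and Eef2 at -0.66 the falls. Of 22 regulators of ribosome production and TOP translation, 4 were higher and 7 lower in Lysfree than in Differentiated, and 5 and 11 without Lysfree 1. Among them were Trp53, which encodes p53, at 1.17 and Yy1 at 0.40, and Rps6kb2, an S6 kinase, at -1.53 and Mtor at -0.56. These lists were described by their counts and medians alone, and no difference between a list and the members was tested.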

How the data were processed

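Per the labels and the study's methods, libraries were made from 3T3-L1 poly A RNA, and the submitters' processing notes name HISAT2 2.0.5, featureCounts 1.5.0-p3 and the mm10 genome. The authors deposited raw counts per gene and FPKM per gene. The settings for strand, overlapping genes and reads with several matches, and the annotation release, are not given in the sources used here. Libraries held 15880144 to 21806693 counts. Groups came from the labels, with 3 libraries each. Each pair of groups was compared with the quasi-likelihood test of edgeR 4.0.16 (R 4.3.3) on the counts of those 6 libraries, with TMM factors, every gene with counts in at least one of them, and Benjamini-Hochberg adjustment over all genes tested. A gene was called at an adjusted p under 0.05. The SE was worked back from the test, as the absolute log2 fold change over the square root of its F statistic. In Differentiated against Undifferentiated the fold change is from the fit without the filter and the SE from the filtered fit. FPKM served for levels only. The smallest p of an exact permutation test of 3 against 3 libraries is 0.1, so none was run.

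Copies of a member were rows elsewhere whose transcript shared a window of 150 bases with its principal GENCODE vM21 transcript. Promoters came from RefSeq (GRCm38.p6), and a motif was counted at any listed start of a gene. Named with values were the 5 largest and 5 smallest called log2 fold changes of each comparison among members at a mean of at least 1 CPM, the 5 highest members, the P stalk, the Mdm2 binders, Rps6, Rps27a, Rpsa, and paralogues with their counterparts. From other lists, 2 rises and 2 falls were named. Some genes that this rule takes are not reported here. The members and lists were chosen with earlier results of these data known. Alternatives were other scalings, filters, DESeq2 1.42.0, limma 3.58.1 on log2(FPKM + 1) and log2(FPKM + 0.1), a 2-fold minimum, copies added, a gene length offset, and leaving out each library. Tested on simulated data, the edgeR fit without a filter recovered most changed genes in each comparison but made more false calls than the adjusted p allows for, and fewer were made with the expression filter, whose counts of calls the report therefore gives beside the others. Replicate numbers did not pair the libraries.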

Additional observations from a re-analysis of the deposited data

How the results depend on the processing

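Higher and lower calls of the members were fewer with limma and fewest with a 2-fold minimum. Shares of all genes called are not given here for limma, for at least 10 counts in every library, for the replicate block and for most single libraries left out. Counts of members under those settings thus do not show whether a change in calls is particular to the members. With limma on log2(FPKM + 1) the higher and lower calls were 4 and 32 in Differentiated against Undifferentiated, 2 and 26 in Lysfree against Undifferentiated, and 4 and 15 in Lysfree against Differentiated, and with a pseudocount of 0.1 they were 4 and 33, 2 and 28, and 4 and 16. With a 2-fold minimum they were 0 and 0, 1 and 9, and 1 and 6. Among the members with under 10% of their windows in another gene they were 2 and 15, 2 and 13, and 4 and 8, a setting added after seeing the data, and the smaller counts follow from fewer members tested. In Lysfree against Undifferentiated, 5 were higher under the expression filter and with at least 10 counts in every library. In Lysfree against Differentiated, 24 were higher without Lysfree 1 and with the filter. Without the member with the most counts, the share of counts was 3.92% in Differentiated and 3.92% in Lysfree.

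Leaving out each library in turn gave 7 to 15 higher and 54 to 64 lower members (median -0.42 to -0.22) in Differentiated against Undifferentiated, the 15 without Undifferentiated 2. It gave 5 to 16 higher and 38 to 54 lower (median -0.51 to -0.31) in Lysfree against Undifferentiated, the 5 without Undifferentiated 3 and the 16 without Lysfree 1. It gave 12 to 29 higher and 21 to 35 lower (median -0.20 to 0.02) in Lysfree against Differentiated, the 29 without Lysfree 1. Mean shares of counts ranged over 5.04% to 5.63% in Undifferentiated, 4.06% to 4.22% in Differentiated and 4.18% to 4.49% in Lysfree.

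Named members called in the report's fit or in the alternative changed direction in 8 of 1674 alternatives, and the cause was not tested. With copies added these were Rpl21 (-0.44 and -0.29 against Undifferentiated in Differentiated and in Lysfree), Rpl34 (-0.011 in Differentiated against Undifferentiated) and Rpl17 (-0.0010 in Lysfree against Differentiated). In Differentiated against Undifferentiated, leaving out 1 library gave Rpl11 values of -0.21 to 0.0016 (without Undifferentiated 2), Rps27a values of -0.48 to 0.092 (without Undifferentiated 3, and 0.015 without Differentiated 1) and Rpl39 values of -0.13 (without Undifferentiated 1) to 0.18. Of the rest, 1488 stayed on the same side of the threshold, 135 lost the call and 43 gained one. Direction was not compared where a member was called in neither fit. Libraries with the same replicate number did not deviate together in every pair, so the numbers were not taken to pair them. With a replicate block the higher and lower calls were 10 and 56 in Differentiated against Undifferentiated, and 9 and 51 in Lysfree against Undifferentiated. In Lysfree against Differentiated, 40 of the 42 calls remained under the block.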

Other observations

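Across the members, the share of lysine codons and the log2 fold change from Differentiated to Lysfree had a Pearson r of -0.19 and a Spearman rho of -0.26 (n = 79 genes, which share libraries and are not replicates), and -0.15 and -0.22 without Lysfree 1. From Undifferentiated to Differentiated, where lysine was present throughout, r was 0.10 and rho 0.13. From Undifferentiated to Lysfree, where lysine differed too, r was -0.11 and rho -0.17, and -0.07 and -0.11 without Lysfree 1. The length of the principal transcript had an r of 0.18 with the change from Differentiated to Lysfree, and of 0.08 without Lysfree 1. These are weak relations, given as a description only.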
